A study of Homo sapiens with 6 samples.

Results

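The genes described here are 7 brakes on mitogen-activated protein kinase (MAPK) signalling: the dual-specificity phosphatases DUSP4, DUSP6, DUSP5, DUSP1 and DUSP10, and the Sprouty genes SPRY2 and SPRY4. They were examined through peaks of H3K27ac, a histone acetylation found at promoters and enhancers in use, in 1 hg19 window around each gene. The windows were chr8:29000001-30000000 for DUSP4, chr12:89700001-89800000 for DUSP6, chr10:112220001-112300000 for DUSP5, chr5:172170001-172270000 for DUSP1, chr1:221800001-222000000 for DUSP10, chr13:80850001-80960000 for SPRY2 and chr5:141670001-141730000 for SPRY4. A peak belonged to a window when at least 1 bp of it lay inside. This gave 145 of the 56420 peaks of M2 macrophages and 51 of the 31444 peaks of THP-1 cells. Peak numbers in the lists start at 2468 for M2 and 1253 for THP-1 and then run without a gap, so lower-numbered peaks were not analysed here, and totals and shares of a whole list refer to the peaks it holds. M2 macrophages, alternatively activated phagocytes, and THP-1 cells, a monocyte line derived from a human leukaemia, grew in the same medium, and no treatment is given in the labels. The cells that gave rise to the macrophages are not stated in the labels. The series has 6 libraries, of YY1, H3K27ac and input, and the H3K27ac peak lists alone were used. Each list comes from 1 library, so no difference below was checked in replicates and no p-value is given.

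MAPK cascades carry signals from receptors to the nucleus through the kinases ERK, p38 and JNK. Active MAPKs induce the transcription of their own inhibitors, and this negative feedback sets how long a signal lasts. DUSP proteins remove the phosphates that activate a MAPK. Sprouty proteins act further up, between receptor tyrosine kinases and ERK. In macrophages, DUSP1 is best known as the phosphatase that limits p38 and JNK signalling and cytokine output after Toll-like receptor stimulation.

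Promoter sequences are shown for DUSP1, DUSP6 and SPRY2, whose windows each held a site of dense H3K27ac fragments called in both lists. The DUSP10 window held such a site too, but its 2 promoter sequences are not shown. They are RefSeq sequences of GRCh38.p14, on the minus strand of that build, 300 bases each, spanning the gene start. The peaks are in hg19, no position was carried between builds, and no peak was placed on these bases. Capitals mark the cAMP response element (CRE) TGACGTCA, its shorter core TGACG, the ETS core CCGGAA and the TATA box TATAAA. The AP-1 site TGANTCA, the CArG box and the YY1 core ATGGCGG were searched too, and every search covered both strands. Every CRE also holds the shorter core.
DUSP1 (chr5:172771146-172771445): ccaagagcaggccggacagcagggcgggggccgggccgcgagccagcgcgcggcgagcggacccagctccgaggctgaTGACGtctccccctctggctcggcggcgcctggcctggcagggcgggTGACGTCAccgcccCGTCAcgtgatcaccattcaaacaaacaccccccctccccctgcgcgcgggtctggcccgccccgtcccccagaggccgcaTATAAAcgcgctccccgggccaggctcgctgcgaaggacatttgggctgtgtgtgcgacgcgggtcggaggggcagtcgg
DUSP6 (chr12:89352452-89352751): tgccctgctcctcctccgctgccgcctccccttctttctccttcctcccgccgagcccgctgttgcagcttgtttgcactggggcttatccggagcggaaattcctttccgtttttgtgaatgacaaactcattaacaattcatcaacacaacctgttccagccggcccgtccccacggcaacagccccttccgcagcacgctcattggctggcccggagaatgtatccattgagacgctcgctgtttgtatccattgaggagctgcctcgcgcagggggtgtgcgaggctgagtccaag
SPRY2 (chr13:80341077-80341376): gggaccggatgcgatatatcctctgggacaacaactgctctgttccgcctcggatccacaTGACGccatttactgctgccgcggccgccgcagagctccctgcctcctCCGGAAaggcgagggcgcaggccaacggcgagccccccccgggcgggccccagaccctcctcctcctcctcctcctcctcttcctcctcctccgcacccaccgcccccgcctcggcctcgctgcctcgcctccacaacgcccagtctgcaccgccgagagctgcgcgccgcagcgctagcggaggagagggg
The DUSP1 sequence holds the full CRE from base -125 to -118 before the start, more copies of the core on either side, and a TATA box from -30 to -25. The full CRE occurs in 1.85% of the 35116 promoters of the RefSeq table and the TATA box in 11.5%. The SPRY2 sequence, the first of 3 in the table, holds 1 TGACG core, found in 24.6% of all promoters, and 1 ETS core, found in 17.2%. The DUSP6 sequence holds none of the 7 motifs. No match to AP-1, the CArG box or YY1 was found in any of the promoters of these genes, against 7.71%, 1.29% and 5.55% of all promoters. Matches are a description and were not set against binding. Sequences were found in the table for DUSP1, DUSP6, DUSP10, SPRY2 and SPRY4. Of those not shown, the second DUSP10 sequence holds a TGACG core from -4 to 1 and the SPRY4 sequence one from -68 to -64. The first DUSP10 sequence and the other SPRY2 sequences hold none of the 7 motifs.

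M2 macrophages had more H3K27ac-covered sequence than THP-1 cells in each of the 7 windows. Together the windows held 164.7 kb of M2 peaks and 37.0 kb of THP-1 peaks, a ratio of 4.45, while over the whole lists the ratio was 2.19. In peak numbers the ratio was 2.84 (145 M2 and 51 THP-1 peaks, exact 95% interval 2.05 to 3.99, counting error only), and 1.79 over the whole lists. M2 coverage was at least 2 times that of THP-1 in 7 of 7 windows. Among 100 kb tiles of the genome with a peak of either list, 61.8% met the same rule and 81.8% held more M2 than THP-1 sequence. For tiles of the other window widths the 2-times rule was met by 62.2% (60 kb), 61.7% (80 kb), 61.8% (110 kb), 60.6% (200 kb) and 59.7% (1000 kb). The windows were chosen with earlier results of these lists known, so these counts describe the loci and test nothing. With the M2 list limited to the length of the THP-1 list the ratio of peak numbers was 1.53 and that of covered length 3.41. At that setting the whole lists hold equal numbers of peaks by construction, so the whole-list ratios above are not the reference. The whole-list ratio of covered length at that setting is not given here.

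**Figure D1:**
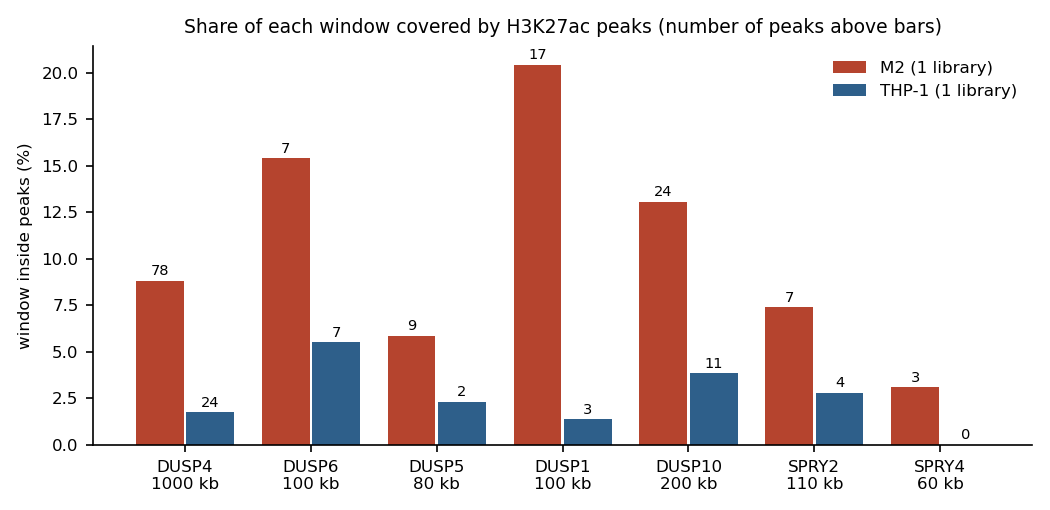
Share of each window inside H3K27ac peaks in percent, M2 left and THP-1 right, 1 library each, with the number of peaks above each bar. The M2 bar is the higher in every window, from 20.4% in the DUSP1 window to 3.10% in the SPRY4 window.

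The order of the windows differed between the cell types. M2 peaks covered 20.4% of the DUSP1 window, 15.4% of DUSP6, 13.1% of DUSP10, 8.81% of DUSP4, 7.39% of SPRY2, 5.87% of DUSP5 and 3.10% of SPRY4. THP-1 peaks covered 5.53% of the DUSP6 window, 3.85% of DUSP10, 2.80% of SPRY2, 2.31% of DUSP5, 1.75% of DUSP4 and 1.38% of DUSP1, and SPRY4 held no THP-1 peak. DUSP1 thus stood highest of the 7 in M2 macrophages and last but for SPRY4 in THP-1 cells. Without replicates, whether neighbours in these orders differ cannot be said. Set against genome tiles of the same width with a peak of either list, 0.966% held as much M2 sequence as the DUSP1 window, 0.967% as the DUSP4 window, 1.86% as DUSP10 and 2.66% as DUSP6. For SPRY2 this share was 13.2%, for DUSP5 22.8% and for SPRY4 48.9%, so the SPRY4 window lay in the middle of all tiles. By THP-1 sequence the same shares were 6.91% for DUSP6, 8.99% for DUSP10, 18.7% for SPRY2, 21.1% for DUSP4, 25.7% for DUSP5 and 37.3% for DUSP1. The DUSP6 and DUSP10 windows thus stood high among tiles in both cell types.

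Most M2 peaks of the windows had no THP-1 counterpart. Among 145 M2 peaks, 113 overlapped no THP-1 peak, which is 77.9%, against 63.0% of the whole M2 list. Among 51 THP-1 peaks, 16 had no M2 peak over them, which is 31.4%, against 24.7% of the whole THP-1 list. Without the DUSP4 window, which held 78 of the 145 M2 peaks, these shares were 73.1% for M2 and 25.9% for THP-1 peaks. The shared M2 share was then 26.9% (exact interval 16.8 to 39.1), an interval that holds the 37.0% of the whole M2 list. Over all 7 windows the shared share was 22.1% (exact interval 15.6 to 29.7) for M2 and 68.6% (54.1 to 80.9) for THP-1 peaks. The M2 share was 34.6% with the M2 list limited to the THP-1 length and 13.8% with both lists limited to -log10 q of 10 or more. That last limit also removes THP-1 peaks, so 13.8% does not say that stronger M2 peaks were shared less. Against the full THP-1 list, the median -log10 q was 24.8 at shared and 10.4 at unshared M2 peaks. When at least 50% of each peak had to overlap, the M2 share was 11.7% and the THP-1 share 33.3%. Whole-list shares under these rules are not given here. Fold enrichment is the authors' own value per peak, the signal at the summit over the local background. Of the M2 peaks, 22 reached 10-fold, which is 15.2%, against 12.4% of the whole M2 list, while the median M2 fold was 5.25 in the windows and 5.42 over the list. Of these 22 peaks, 19 overlapped no THP-1 peak, which is 86.4%, against 44.7% of all M2 peaks of that strength. No THP-1 peak of the windows reached 10-fold, against 1.56% of the whole THP-1 list. The 22 peaks comprised 13 in the DUSP4 window, 4 in DUSP1, 3 in DUSP10 and 2 in DUSP6.

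**Figure D2:**
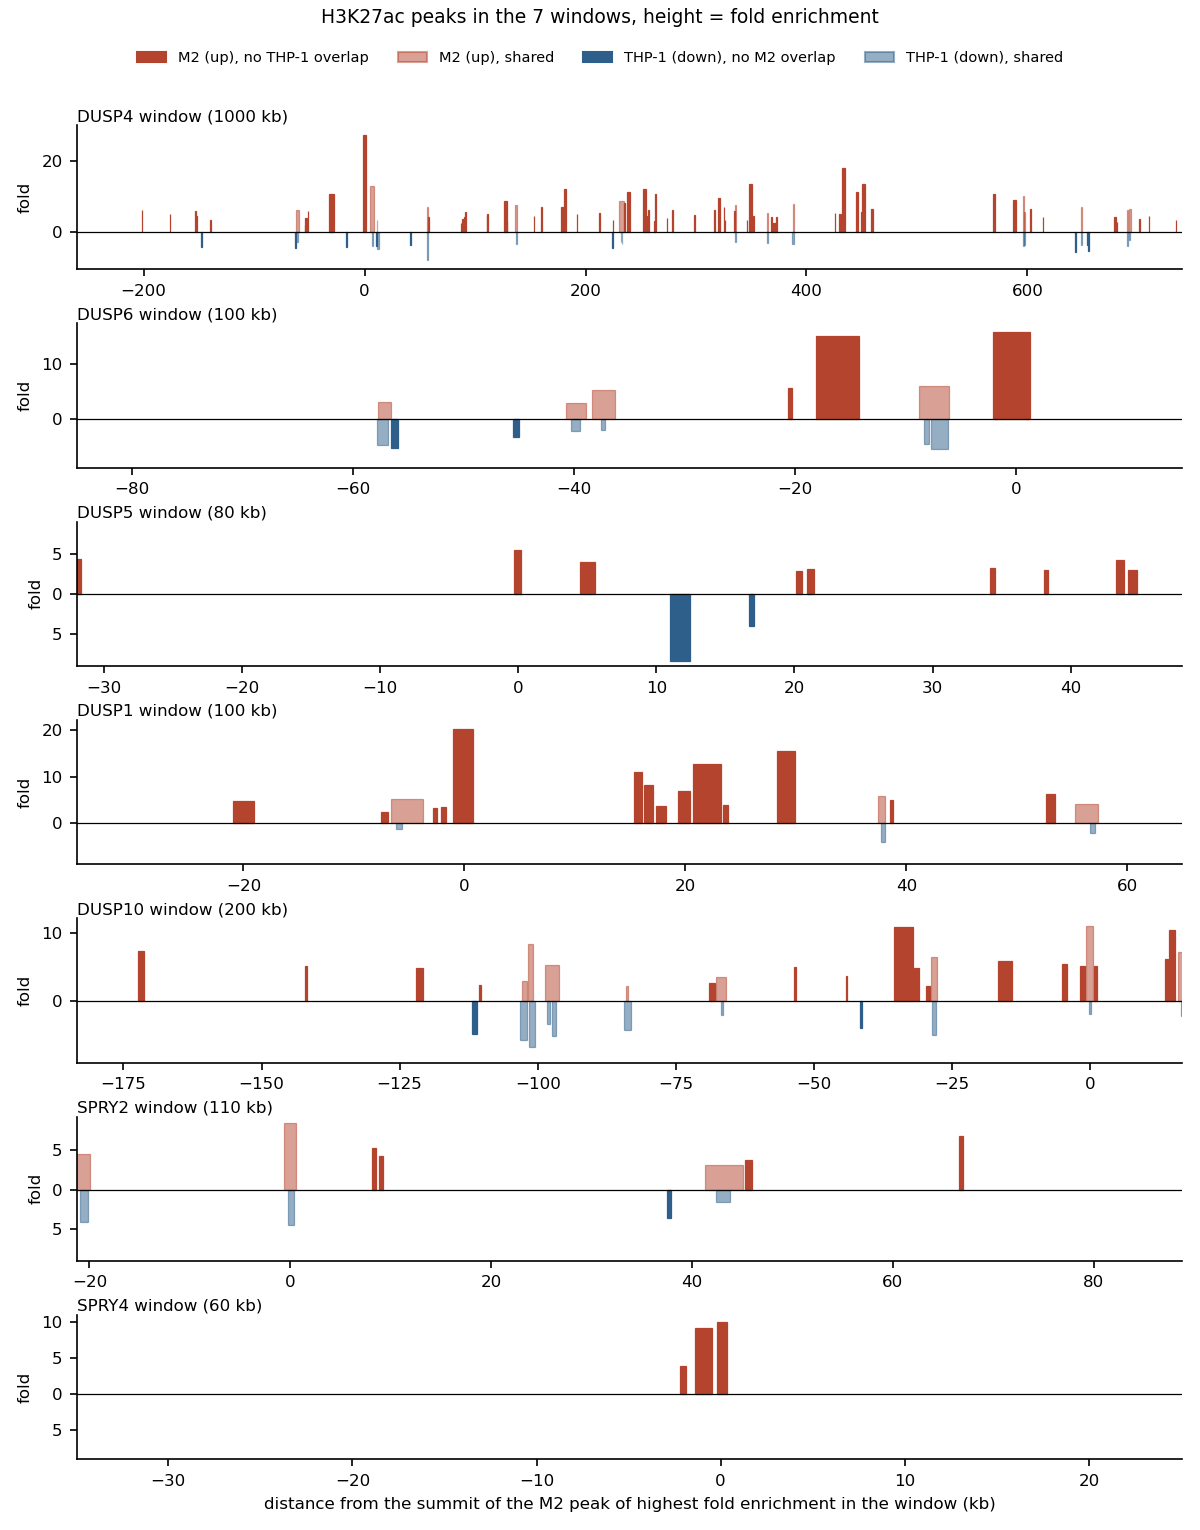
H3K27ac peaks of the 7 windows drawn to scale by distance in kb from the summit of the M2 peak of highest fold enrichment, with height as fold enrichment, M2 upward and THP-1 downward. Solid bars overlap no peak of the other list and pale bars do, and the tallest solid M2 bars, 27.3-fold in the DUSP4 window and 20.2-fold in the DUSP1 window, have no THP-1 bar below them.

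DUSP1, the nuclear immediate-early phosphatase that acts on p38, JNK and ERK, had the widest contrast among the windows with peaks in both lists. Its window held 17 M2 peaks over 20436 bp and 3 THP-1 peaks over 1376 bp, a ratio of 14.9 in covered length. The 3 THP-1 peaks all lay inside or across M2 peaks, so that 100% of the THP-1 sequence and 6.73% of the M2 sequence was common to both lists. The M2 peak of highest fold enrichment lay at chr5:172204000-172205843, 20.2-fold over background with 167 fragments over the summit, and the nearest THP-1 peak was 4594 bp away. It stood above 99.2% of all M2 peaks in fold enrichment. The next M2 peaks were 15.4-fold at chr5:172233358-172234987 and 12.7-fold at chr5:172225702-172228253, and the nearest THP-1 calls were 7783 and 14517 bp away. All 3 lay in a stretch of 43.4 kb, from 172199406 to 172242770, that held 10 M2 peaks and no THP-1 peak. Stretches of about this length without a THP-1 peak are common, as 34.9% of 60 kb tiles with a peak of either list held none.

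The widest M2 peak of the DUSP1 window was a different kind of site. It spanned chr5:172198357-172201329 and overlapped the weakest THP-1 call of the window, chr5:172198810-172199405. The M2 peak had 274 fragments over its summit and 5.12-fold enrichment. The THP-1 peak had 99 fragments, yet was 1.40-fold enriched, with a -log10 q of 1.32, near the lowest of the THP-1 list at 1.3. The local background was high there, 22.8 times the genome-wide level in M2 and 39.8 times in THP-1 cells. Summit level, the fragments over the summit scaled as in the peak call and divided by the genome-wide background of the library, was 119 in M2 and 56.1 in THP-1 cells. The ratio of these levels was 2.12 (interval 1.68 to 2.70, counting error only). The THP-1 summit is the first base of its call, and the summits lie 156 bp apart, so the ratio compares different positions. The THP-1 peak of highest fold enrichment in the window, chr5:172242771-172243115, was 4.19-fold with 12 fragments and overlapped an M2 peak of 5.79-fold with 19 fragments. The third THP-1 peak, chr5:172261646-172262080, was 2.23-fold with 33 fragments, and none of the 4 M2 peaks of at least 10-fold had a THP-1 call over it.

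DUSP4, a nuclear phosphatase of ERK, JNK and p38 that ERK activity induces, has the longest window and the most peaks. It held 78 M2 peaks over 88054 bp and 24 THP-1 peaks over 17484 bp, a ratio of 5.04 in covered length. Of these, 64 M2 and 9 THP-1 peaks overlapped no peak of the other list. The M2 peak of highest fold enrichment in any of the windows lay here, at chr8:29258832-29261347, 27.3-fold with 94 fragments, above 99.9% of all M2 peaks, with the closest THP-1 call 5411 bp off. The others at the top were 18.1-fold at chr8:29692196-29695143 and 13.5-fold at chr8:29710679-29713370. These lay 43251 and 61734 bp from the nearest THP-1 peak, inside a stretch of 207.5 kb with 10 M2 peaks and no THP-1 peak. How common stretches of that length without a THP-1 peak are over the genome is not given here. The widest M2 peak, chr8:29490367-29494642, was 8.75-fold and overlapped 2 small THP-1 peaks of 2.80-fold and 3.42-fold.

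In 100 kb steps along the DUSP4 window, M2 coverage was highest from 29.6 to 29.7 Mb, with 14602 bp in M2 and 2114 bp in THP-1 cells. The step from 29.5 to 29.6 Mb held 15 M2 peaks and 1 THP-1 peak. The lists were closest by ratio in the second step, with 3646 bp in M2 and 2617 bp in THP-1 cells, and in the last, from 29.9 to 30 Mb, with 7046 bp in M2 and 3352 bp in THP-1 cells. The M2 peak with the most fragments of any window, chr8:29938736-29940588, lay in that last step, 4.30-fold with 372 fragments and no THP-1 peak over it. After peaks within 12.5 kb were joined, the window held 2 dense M2 regions of at least 10 peaks, chr8:29472352-29539136 with 16207 bp of M2 and 1492 bp of THP-1 peaks, and chr8:29576300-29632992 with 13451 bp of M2 and 1377 bp of THP-1 peaks. Both were picked by their M2 peaks alone, so more M2 than THP-1 sequence in them follows in part from that choice. By covered length they ranked 146 and 201 of the 337 dense M2 regions of the genome. When peaks were joined within 6.25 kb, no dense region touched any window, and the whole genome held 75 dense M2 regions. The leading THP-1 peaks of the window lay outside both regions. The highest in fold enrichment, chr8:29316843-29317240, was 7.96-fold and shared with a 6.96-fold M2 peak. The widest, chr8:29198121-29200136, was shared, 2.69-fold with 80 fragments, under an M2 peak of 6.31-fold with 241 fragments. THP-1-only peaks of 5.69-fold at chr8:29903441-29903866 and 5.38-fold at chr8:29915120-29915997 lay toward the far end, and that last peak held 95 fragments. In the RefSeq gene order KIF13B precedes DUSP4 and SARAF and LEPROTL1 follow it. In so long a window peaks cannot be assigned to DUSP4 alone.

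**Figure D3:**
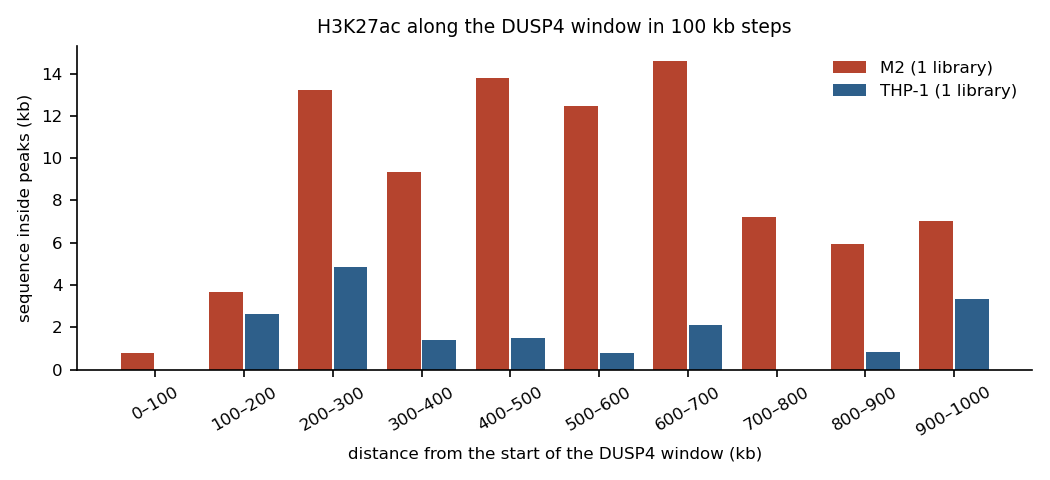
Sequence inside H3K27ac peaks in kb for each 100 kb step from the start of the DUSP4 window, M2 left and THP-1 right, 1 library each. The M2 bar is the higher in all 10 steps, and no THP-1 peak lies in the first step or in the eighth.

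DUSP5, the nuclear ERK-specific phosphatase, was the exception among the windows with peaks in both lists, because no peak was shared. Its 9 M2 peaks and 2 THP-1 peaks covered 4697 and 1848 bp inside the window and had 0 bp in common. It was also the only window where the highest fold enrichment was in the THP-1 list. The THP-1 peak at chr10:112262921-112264393 was 8.37-fold, above 96.4% of all THP-1 peaks, with 25 fragments over the summit, and the nearest M2 peak was 5427 bp away. The M2 peak nearest to it, chr10:112256417-112257493, is the widest M2 peak of the window, 4.01-fold with 118 fragments. On the scale of summit level this M2 peak reached 51.3 and the THP-1 peak 14.2, so the order by fold enrichment and by level was opposite. Local background was 12.4 times the genome-wide level at the M2 peak and 1.19 times at the THP-1 peak. The remaining top M2 peaks, 5.45-fold at chr10:112251632-112252160, 4.35-fold at chr10:112219925-112220276 and 4.24-fold at chr10:112295252-112295787, stood at distances of 10760, 42644 and 26241 bp to the closest THP-1 call. The second THP-1 peak, chr10:112268636-112269010, was 3.98-fold with 10 fragments.

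DUSP6, the cytoplasmic phosphatase most selective for ERK, had equal numbers of peaks in the lists but unequal coverage. Its window held 7 M2 peaks over 15390 bp and 7 THP-1 peaks over 5525 bp, a ratio of 2.79. The contrast lay in 2 wide M2-only peaks. One, at chr12:89782911-89786232, was 15.9-fold with 122 fragments, and the other, at chr12:89766898-89770795, was 15.1-fold with 83 fragments and the widest of the window at 3898 bp. THP-1 peaks lay 4123 and 5831 bp away. Between them a site at chr12:89776173-89778926 was called in both, 6.03-fold in M2 and 5.60-fold in the stronger of its 2 THP-1 peaks, chr12:89777320-89778787. That THP-1 peak was the widest and the highest in fold enrichment of its list in the window, and summit levels were 21.3 in M2 and 19.8 in THP-1 cells (ratio 1.07, interval 0.682 to 1.71).

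A pair of neighbouring M2 peaks at chr12:89744216-89746042 and chr12:89746590-89748687, 547 bp apart, held the most fragments of the DUSP6 window, 157 and 182. Each overlapped a THP-1 peak, with 58 and 109 fragments. The level ratios were 2.08 (interval 1.53 to 2.86) and 1.28 (1.00 to 1.64). The highest THP-1-only peak of the window, chr12:89728362-89729039, was 5.42-fold with 14 fragments and lay 9 bp from an M2 peak. The 5 THP-1 peaks shared with M2 thus met only 4 M2 peaks, and the 2 M2 peaks of highest fold enrichment were not among them.

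DUSP10, which acts on p38 and JNK, had THP-1 peaks that were shared at about the rate of the whole list. Its window held 24 M2 peaks over 26157 bp and 11 THP-1 peaks over 7707 bp, a ratio of 3.39, and 81.8% of its THP-1 peaks lay at an M2 peak, against 75.3% of the THP-1 list. The THP-1 peak of highest fold enrichment, chr1:221881731-221882825, was 6.65-fold with 113 fragments, and the M2 peak over it was 8.51-fold with 275 fragments, with a level ratio of 1.87 (interval 1.49 to 2.34). The widest THP-1 peak, chr1:221898984-221900222, was 4.28-fold and the M2 peak there 2.31-fold, and the level ratio was 0.840 (0.604 to 1.17). Both sites were called in both cell types, with the higher level in M2 at the first and an interval that spans 1 at the second.

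The M2 peaks of highest fold enrichment in the DUSP10 window lay toward its end at higher coordinates. They were 11.1-fold at chr1:221982609-221983847, 11.0-fold at chr1:221947894-221951297 and 10.5-fold at chr1:221997717-221998765. The first overlapped a THP-1 peak of 1.84-fold, and the others had their nearest THP-1 calls at 3386 and 1127 bp. By summit level the highest was instead chr1:221915702-221917358, at 135 in M2 and 86.1 in the THP-1 peak it overlaps. A dense M2 region, chr1:221914307-222015575, runs 15.6 kb past the window end and ranked 44 of 337 by covered length. Its part inside the window held 16 M2 peaks over 18157 bp and 5 THP-1 peaks over 2088 bp, a ratio of 8.70. The region was picked by its M2 peaks alone, which favours a high ratio, so 8.70 is no further contrast beside 3.39 for the window. Like the dense DUSP4 regions, it was not called with peaks joined within 6.25 kb. The genome held 101 dense THP-1 regions, and none touched the 7 windows, where 3 of 337 dense M2 regions did. With so few in M2, the lack of a THP-1 region is not a contrast between the cell types. THP-1-only peaks numbered 2, the higher 4.76-fold at chr1:221871466-221872375 and 373 bp from an M2 peak.

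SPRY2, an inhibitor of growth factor signalling to ERK, had its leading peaks at common sites. Its window held 7 M2 peaks over 8133 bp and 4 THP-1 peaks over 3077 bp, a ratio of 2.64, and 88.1% of the THP-1 sequence was also covered by M2 peaks. The peak of highest fold enrichment in either list was the same site: 8.36-fold in M2 at chr13:80870600-80871755 and 4.51-fold in THP-1 cells at chr13:80871012-80871590. The fragments over it numbered 28 in M2 and 31 in THP-1 cells, and the level ratio was 0.693 (interval 0.40 to 1.19). Here fold enrichment was higher in M2 while the level was not, and local background was 1 times the genome-wide level in M2 and 3.46 times in THP-1 cells. The widest peak of either list was also 1 site, chr13:80912461-80916270 in M2 and chr13:80913620-80915000 in THP-1 cells, with 248 and 109 fragments and a level ratio of 1.74 (1.39 to 2.21). M2-only peaks at chr13:80937817-80938214 and chr13:80879371-80879771 were 6.79-fold and 5.22-fold, and the THP-1-only peak chr13:80908728-80909094 was 3.6-fold.

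SPRY4, a second Sprouty inhibitor of the pathway, had peaks in M2 macrophages only. The window held 3 M2 peaks within about 3 kb: 9.94-fold with 65 fragments at chr5:141704725-141705275, 9.14-fold with 64 fragments at chr5:141703531-141704496, and 3.93-fold with 25 fragments at chr5:141702716-141703059. The nearest THP-1 peak lay 188619 bp from this group. Of 60 kb tiles with a peak of either list, 34.9% held no THP-1 peak. A list of called peaks does not give the THP-1 signal where no peak was called, so absence from the list is not absence of acetylation.

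Where both lists called a peak, M2 levels were higher more often than not. The windows held 35 overlapping pairs of an M2 and a THP-1 peak, some of which share a wide M2 peak. The summits of a pair lay up to 980 bp apart, so a level ratio can compare different positions. M2 peaks were wider in 29 of 35 pairs (82.9%, against 72.7% of 24682 pairs over the genome) and had the higher fold enrichment in 30 of 35 (85.7%, against 84.8%). The second share is close to that of the genome. Summit level could be compared in 34 pairs and was higher in M2 in 26, or 76.5%, against 50.5% of all pairs. The median level ratio was 1.5 in the windows (interquartile range 1.05 to 2.11) and 1.01 over the genome (0.671 to 1.54). The median ratio of local background, M2 over THP-1, was also higher in the windows, at 0.890 against 0.483 over the genome, and its part in the level ratio was not tested. Counting intervals lay above 1 in 17 pairs and below 1 in 2 pairs, where 27.9% and 24.5% of all pairs did. M2 was higher in 3 of 3 pairs of the DUSP1 window, 5 of 5 of DUSP6, 7 of 9 of DUSP10, 9 of 14 of DUSP4 and 2 of 3 of SPRY2. The highest ratio was 4.79 at chr1:221884599-221887279 in the DUSP10 window. The lowest was 0.383 at chr8:29271386-29271708 in the DUSP4 window, where a THP-1 peak of 1951 bp met an M2 peak of 323 bp.

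**Figure D4:**
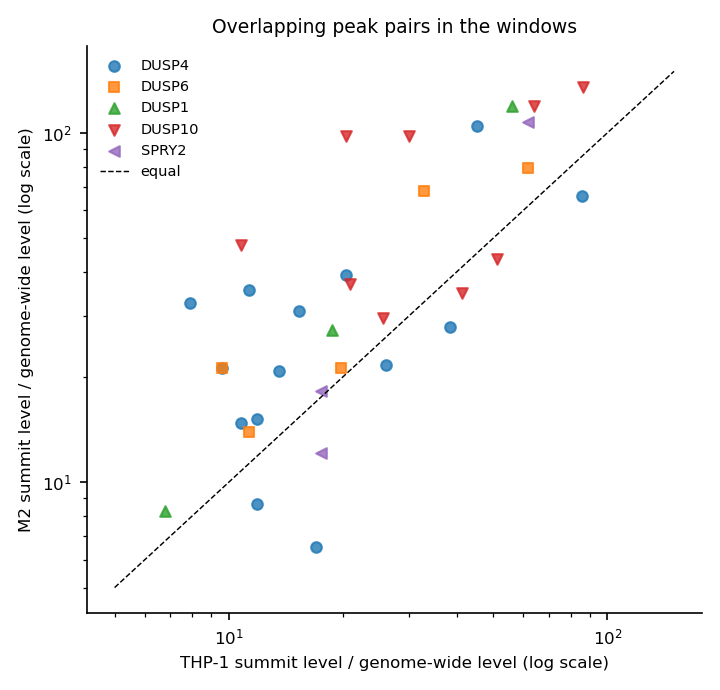
Summit level of the M2 peak against that of the overlapping THP-1 peak for 34 pairs, each as a multiple of the genome-wide level of its library, on log axes with symbols for the windows. Most points (26) lie above the dashed line of equal levels, and the points farthest above it, with ratios of 4.79 and 4.44, are pairs of the DUSP10 window.

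Peaks of the windows ranged between many fragments over a high background and strong enrichment over a low one. In 24 M2 peaks the recovered background was at least 10 times the genome-wide level, with a median fold enrichment of 3.37 and a median summit level of 70.2, and 10 of these 24 overlapped a THP-1 peak, against 54.9% of such M2 peaks over the genome. In THP-1 cells 10 peaks had such a background, with a median fold enrichment of 2.07 and a median level of 58.9, and 9 of them overlapped an M2 peak, against 96.6% of such THP-1 peaks over the genome. The sites of highest level in the DUSP1, DUSP6, DUSP10 and SPRY2 windows were of this kind, and they were the same site in both lists. The 22 M2 peaks of at least 10-fold enrichment instead had a background of 1 to 4.65 times the genome-wide level (median 2.32, against 2.06 for all M2 peaks of that strength). Background and fold enrichment are tied, because the background was solved from the fold. Over the windows the median background was 2.38 at M2 and 4.23 at THP-1 summits, against 2.54 and 4.99 over the lists. The part of the longer M2 list in this difference was not tested.

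**Figure D5:**
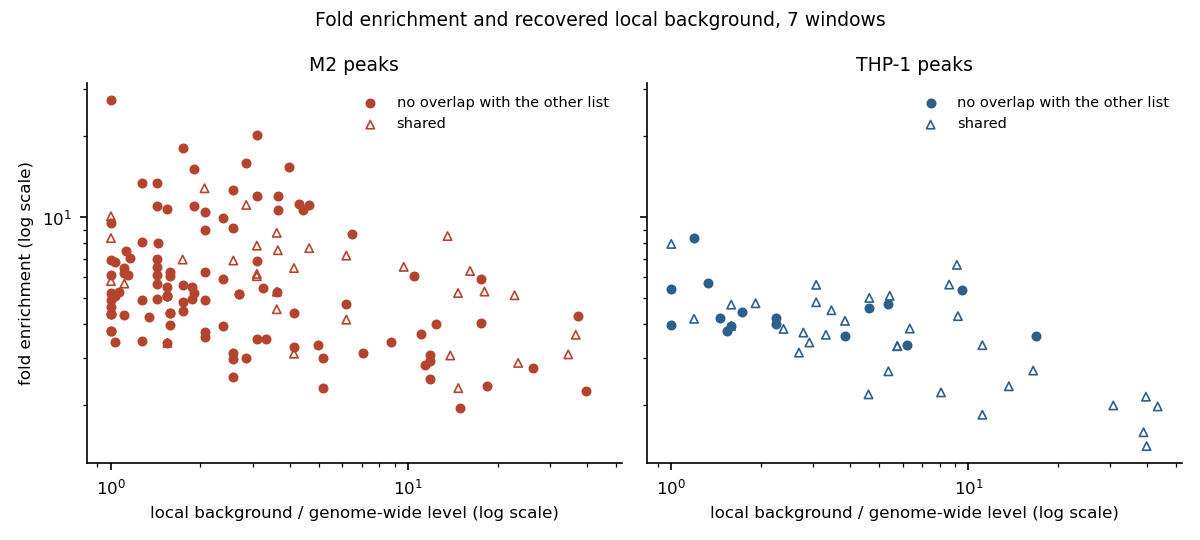
Fold enrichment against the recovered local background, as a multiple of the genome-wide level, for the peaks of the 7 windows with a single solution, M2 left and THP-1 right, on log axes. Filled circles overlap no peak of the other list and open triangles do. M2 peaks of at least 10-fold all lie at a background of at most 4.65, and 9 of the 10 THP-1 peaks at a background of at least 10 are shared.

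No gene other than the 7 was placed in hg19, so other feedback genes of the pathway and the marker genes of monocytes and macrophages were not analysed here. Which peak of a window acts on the named gene, and which on a neighbour, is not shown by these lists for any of the 7 windows.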

How the data were processed

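H3K27ac was profiled by chromatin immunoprecipitation and sequencing in 1 library each of M2 macrophages and THP-1 cells. The submitters' processing notes name Bowtie2, MACS2 version 2.1.0 and hg19. Settings, and whether input served as control, are not stated there. The fold enrichment deposited by the authors is a ratio over local background. The deposited -log10 p and -log10 q are the authors' values, and the deposited score, the whole part of 10 times that -log10 q, entered no comparison.

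Peaks were compared in Python 3.11.15 (pandas 2.3.3, scipy 1.17.1), and an overlap of 1 bp made peaks shared. Covered length was clipped at the window ends, and the Y chromosome was left out. All peaks of a window were counted; those named are the highest in fold enrichment and the widest of each list, and unshared peaks among the 3 of highest fold. Further peaks, such as the neighbouring pair in the DUSP6 window, were named after their values were seen. The members, windows and lists were chosen with earlier results of these data known.

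Fragments over a summit were solved from fold enrichment and p by the usual MACS2 relations, with a pileup scale of 0.842 for M2 and 1 for THP-1. A single whole number, within 0.02, was found for 97.2% of the M2 list and 96.5% of the THP-1 list. The genome-wide level was set to the smallest background solved, 1.94 in M2 and 1.77 in THP-1, in fragments multiplied by the pileup scale of the list. These are inferences, and library depth is unknown. Exact 95% intervals cover counting error only. The overlap and fragment steps were tested on simulated data. The simulated peaks followed the same MACS2 relations, so whether the deposited values follow them was not tested. Simulated backgrounds stayed below the highest of the windows, so recovery at those sites was not tested either.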

Additional observations from a re-analysis of the deposited data

How the results depend on the processing

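M2 covered length exceeded that of THP-1 in 7 of 7 windows under a -log10 q of at least 10, lists of equal length and whole peaks, and in 6 of 6 without the DUSP4 window. With both lists limited to a -log10 q of 10 or more, the ratio of peak numbers was 4.58, that of covered length 7.05 and the shared share of M2 peaks 13.8%. The DUSP1 and SPRY4 windows then held 0 THP-1 peaks. With lists of equal length the ratio of peak numbers was 1.53 and the shared M2 share 34.6%, and the ratio of covered length 3.41. With an overlap of at least 50% of each peak the shared shares were 11.7% for M2 and 33.3% for THP-1 peaks. Shared shares of the whole lists under these settings are not given here. The number of dense M2 regions that touch a window was 0 when peaks were stitched within 6.25 kb and 6 within 25 kb, against 3 within 12.5 kb. Over the genome the number also rose with distance, from 75 within 6.25 kb to 337 within 12.5 kb and 915 within 25 kb. Leaving out any 1 window, chosen after seeing the data except for DUSP4, kept the ratio of peak numbers between 2.48 and 3.14 and that of covered length between 3.93 and 4.74. No paired analysis was possible because each cell type has 1 library. The lists hold called peaks only, so depth limits what can be said where THP-1 has none.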
